A study of Mus musculus with 6 samples.

Results

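The xenobiotic and steroid metabolising enzymes described here are the cytochromes P450, the UDP-glucuronosyltransferases, the sulfotransferases, the carbonyl reductases and the Akr1 branch of the aldo-keto reductases. Members were taken by symbol alone, as every row of the count table that begins with Cyp, Ugt, Sult or Cbr followed by a digit, or with Akr1, with Cyp51 left out. The rule found 203 of the 24498 genes in the table. Of these, 39 are pseudogene symbols and 1 is an antisense symbol. Counts were high enough for testing in 44 members (no pseudogene among them), another 101 had counts below the filter, and 58 had no count in any library.

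These enzymes act in sequence on foreign compounds and on endogenous lipids. Cytochromes P450 are haem enzymes that oxidise their substrates with electrons passed on by P450 oxidoreductase, and carbonyl and aldo-keto reductases turn aldehydes and ketones into alcohols with NADPH. Glucuronosyltransferases and sulfotransferases then attach glucuronic acid or sulfate, which makes the product soluble and, for a steroid hormone, usually inactive. In the prostate the same families bear on the local supply of androgen, and many of their genes are under the control of ligand-activated receptors such as the aryl hydrocarbon receptor.

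RNA was sequenced in bulk from marker-positive cells sorted from the digested prostates of male mice. The Clu intact group came from Clu-CreER(T2) mice that also carried the reporter allele Gt(ROSA)26Sortm14(CAG-tdTomato)Hze on a B6.Cg stock (Clu;tdTomato) and were left intact. The Nkx castrate and Nkx intact groups came from Nkx3.1-CreER(T2) mice with the reporter allele Gt(ROSA)26Sortm1(EYFP)Cos from a B6.129X1 stock (Nkx3.1;EYFP), castrated or left intact. Castration was done at 8 weeks of age, the prostates of all groups were collected 4 weeks after that point, and 2 ng of total RNA entered each library. The labels give the mice of the study an age of 7 to 13 weeks. All groups carry an inducible Cre and a fluorescent reporter. The sorted cells are those marked through the Clu or the Nkx3.1 driver and their descendants, not a cell type chosen by its surface. Nkx3.1 is itself an androgen-dependent gene, and the time of Cre induction is not given in the sources used here. Each group held 2 libraries, named by group and number. Whether the libraries of a group stem from different animals is not stated in the labels, so the p-values speak only of the spread within these pairs of libraries, part or all of which may be technical.

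Depth lay between 10220118 and 17412874 counts per library, and 1 count was worth 0.0561 to 0.0988 CPM (counts scaled to a common library size) after normalisation. Between 75.1% and 82.2% of the counts from 1 to 9 were even numbers, against 50.1% to 53.7% of the largest counts, so most low counts come in pairs. Intervals or floors set by counts cover counting error at most. A floor of 3 counts takes counts as independent, which paired counts are not. Folds set against 3 counts are therefore no lower bounds. Proximal luminal markers (8 genes, among them Krt4 and Psca) summed to 7049 and 8020 CPM in Clu intact, 2842 and 4068 CPM in Nkx castrate, with 947 and 951 CPM in Nkx intact. The list holds Clu, the driver gene of the Clu group, with 1808 and 1934 CPM in Clu intact. Krt19 (1855 and 2881 CPM) and Clu (721 and 844 CPM) made up most of the Nkx castrate sum. With castration 7 of the 8 were called higher (edgeR), where 4.02% of all genes tested were. Psca was not called, with 9.43 and 1.92 CPM in Nkx castrate, against 8.99 and 10.5 CPM in Nkx intact. Distal luminal secretory markers (8 genes, among them Pbsn and Tgm4) summed to 10004 and 8118 CPM in Clu intact, 4476 and 5384.5 CPM in Nkx castrate, with 16670 and 20819 CPM in Nkx intact. Most of the Nkx castrate sum of the distal list was Krt8 (2180 and 2558 CPM) and Krt18 (2132 and 2590 CPM), the 2 distal markers called higher with castration (edgeR). Pbsn had 106 and 112 CPM there, against 5393 and 6937 CPM in Nkx intact, and Tgm4 4.21 and 1.85 CPM, against 8396 and 11255 CPM. Of the 8 distal markers, 5 were called lower with castration, where 4.59% of all genes tested were called lower and 4.02% higher. Markers of other cell types also had counts in the sorts. Whether that RNA came from other cells or from the marked cells themselves was not tested. Endothelial markers (7 genes) came to 906 and 371 CPM in Clu intact, 402 and 50.5 CPM in Nkx castrate, with 57.2 and 36.8 CPM in Nkx intact. Stromal markers (11 genes of fibroblasts and smooth muscle) reached 2167 CPM in Nkx castrate 1, against 542 to 761 CPM in the other 5 libraries. With castration 4 of the 11 were called higher and 0 lower (edgeR). Among the 4, Myh11 had 923 and 250 CPM in Nkx castrate, against 64.7 and 44.8 CPM in Nkx intact, and Acta2 333 and 98.5 CPM, against 28.4 and 13.2 CPM. Col1a1 was lower in both castrate libraries (46.3 and 6.21 CPM, against 79.2 and 72.8 CPM) and was not called. The 10 leukocyte markers reached 186 CPM in Nkx castrate 1, against 18.1 to 107 CPM in the others. The 6 hepatocyte markers summed to at most 2.07 CPM in any library, and 2 of them had no count. Seminal vesicle markers (6 genes) came to 4.98 and 0 CPM in Clu intact, 0.112 and 0 CPM in Nkx castrate, with 81.3 and 148 CPM in Nkx intact. Of the 5 tested, 4 fell with castration and 3 were lower in Clu intact than in Nkx intact (edgeR). The shares of all genes tested were 4.59% and 5%. Urothelial markers (6 genes) came to 353 and 393 CPM in Clu intact, 352 and 534 CPM in Nkx castrate, with 123 and 155 CPM in Nkx intact. Their members differed in which group was highest. Upk3a had 0.337 and 0 CPM in Clu intact, 146 and 197 CPM in Nkx castrate, with 0.574 and 0 CPM in Nkx intact. Upk2 had 20.6 and 23.5 CPM, 0.561 and 2.37 CPM, and 0.383 and 0.790 CPM in the same groups. Upk1b was also highest in Clu intact (205 and 206 CPM), and Upk1a overlapped between Clu intact (127 and 163 CPM) and Nkx castrate (82.8 and 181 CPM). Basal markers (8 genes) came to 2928 and 3086 CPM in Clu intact, 5017 and 3112 CPM in Nkx castrate, with 4994 and 5188 CPM in Nkx intact. Trp63, a defining one, had 13.2 and 24.6 CPM in Clu intact, 61.5 and 34.7 CPM in Nkx castrate, with 249 and 238 CPM in Nkx intact. It was the only 1 of the 8 called with castration (edgeR), and 3 were called lower in Clu intact against Nkx intact. Krt15 was called in no comparison, with 1086 and 1299 CPM, 1259 and 981 CPM, and 1079 and 1091 CPM in the same groups. These sums move along the same comparisons as the enzymes, and their part in the results was not tested. In bulk RNA, fewer cells of a type and less RNA per cell cannot be told apart.

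Summed over all 203 members, expression was 2495 ± 88.4 CPM in Clu intact, 847 ± 102 CPM in Nkx castrate, with 1320 ± 0.579 CPM in Nkx intact (SD, n = 2 each). Few genes carry these sums. Levels of different genes are compared per kilobase of exon. The length joins all annotated exons of a gene and can exceed that of the transcript expressed. By this measure the leading enzyme of Clu intact cells was Cbr2, a carbonyl reductase, at 585 CPM per kb, followed by the P450 Cyp2f2 at 287 CPM per kb. In both Nkx groups the leading enzyme per kilobase was Akr1a1, the aldehyde reductase, at 103 CPM per kb in Nkx castrate and 109 CPM per kb in Nkx intact. By CPM alone Akr1b3 was above it in Nkx intact (423 against 301 CPM). Akr1b3 had 50.4 CPM per kb there over 8.38 kb of exon, while its longest transcript has 5024 bases. The order of these 2 genes thus rests on the lengths used. Cbr2 and Cyp2f2 made up 31.1% and 23.3% of the summed CPM in Clu intact, whereas Akr1a1 made up 33.5% in Nkx castrate and Akr1b3, the aldose reductase of the mouse, 32.0% in Nkx intact.

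The classes differed in which group was highest. The 4 carbonyl reductases summed to 825 and 914 CPM in Clu intact, 83.4 and 111 CPM in Nkx castrate, with 135 and 145 CPM in Nkx intact. The 73 Cyp2 symbols summed to 701 and 709 CPM in Clu intact, 121 and 119.9 CPM in Nkx castrate, with 191 and 157 CPM in Nkx intact. The Clu intact libraries were thus far above the others in both classes, and Cyp2f2 alone held 82.4% of the Cyp2 sum there. The 27 sulfotransferases summed to 57.4 and 76.5 CPM in Clu intact, 7.63 and 4.95 CPM in Nkx castrate, with 59.2 and 64.0 CPM in Nkx intact, so that the castrate libraries were the low ones. Sult5a1 held 90.6% of this sum in Nkx intact and 29.4% in Clu intact. The lower castrate sum against Nkx intact thus rests largely on Sult5a1. The 22 glucuronosyltransferases, by contrast, were lowest in Nkx intact. They summed to 51.7 and 62.9 CPM in Clu intact, 28.3 and 42.5 CPM in Nkx castrate, with 3.54 and 9.58 CPM in Nkx intact. Ugt2b34 held 91.4% of this sum in Clu intact and 76.2% in Nkx castrate. Cyp3 and Cyp4 were the classes with their highest sums in Nkx castrate and no overlap with either other group. Cyp3 reached 54.4 and 28.1 CPM in Nkx castrate, against 4.05 and 7.62 CPM in Clu intact and 5.17 and 7.31 CPM in Nkx intact, nearly all of it Cyp3a57. Cyp4 reached 99.1 and 130.04 CPM in Nkx castrate, against 76.7 and 66.1 CPM in Clu intact and 67.7 and 59.3 CPM in Nkx intact. The 16 Akr1 symbols summed to 660.02 and 665 CPM in Clu intact, 314 and 424 CPM in Nkx castrate, with 730.2 and 815 CPM in Nkx intact. Class sums are descriptions and were not tested.

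**Figure D1:**
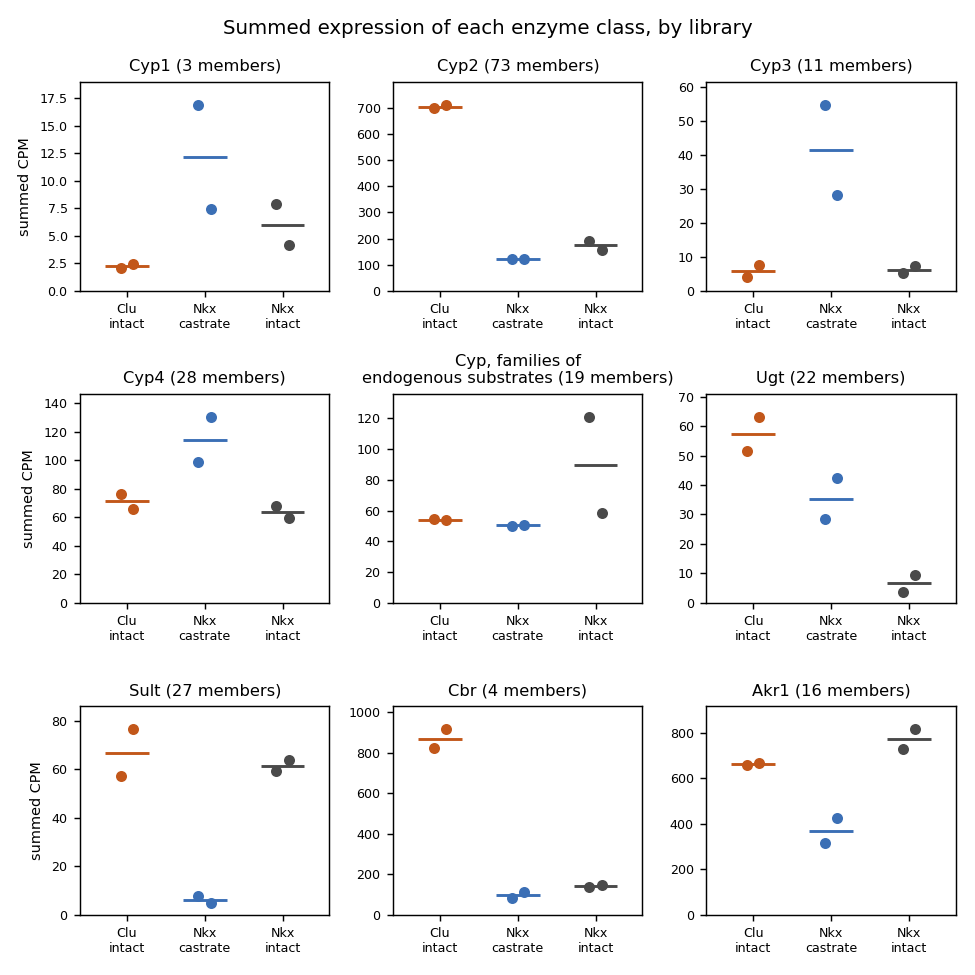
Summed CPM of each enzyme class (vertical axis, from 0) in the 2 libraries of Clu intact, Nkx castrate and Nkx intact; each point is a library and each line the mean of 2. Carbonyl reductases and Cyp2 are highest in Clu intact (825 and 914 CPM, and 701 and 709 CPM), and sulfotransferases are lowest in Nkx castrate (7.63 and 4.95 CPM).

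Between Nkx castrate and Nkx intact, members differed in both directions. Of the 44 tested, 3 rose and 4 fell in Nkx castrate against Nkx intact (edgeR quasi-likelihood test, Benjamini-Hochberg adjusted p under 0.05), or 6.82% and 9.09%. Over all 13846 genes tested, 4.02% rose and 4.59% fell, together 8.61% against 15.9% of the members. The libraries of the groups did not overlap in 20 of the 44 members, against 49.9% of all genes tested. The median log2 fold change was 0.05 over the members and 0.05 over all genes tested. The aldose reductase, a sulfotransferase, a P450 and a carbonyl reductase fell, and a glucuronosyltransferase and a pair of P450 enzymes rose. The number that rose was 1 without Nkx intact 2. When either Nkx intact library was left out 2 fell, and when Nkx castrate 1 was left out 8 fell.

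Akr1b3, which reduces glucose to sorbitol and also acts on lipid aldehydes, had 31.5 and 43.8 CPM in Nkx castrate, against 393 and 452 CPM in Nkx intact. The log2 fold change was -3.49 (SE 0.22, edgeR adjusted p = 0.000439), an 11.2-fold lower level, and the groups did not overlap. Sult5a1, a sulfotransferase, had 1.85 and 2.37 CPM in Nkx castrate, against 52.7 and 59.0 CPM in Nkx intact. It fell 26.5-fold (log2 fold change -4.73, SE 0.53, edgeR adjusted p = 0.00265). Both genes stayed called under each alternative run.

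Cyp2f2 and Cbr2 fell less. Cyp2f2, best known as the P450 of mouse lung club cells that activates naphthalene, had 30.03 and 43.2 CPM in Nkx castrate, against 102 and 97.6 CPM in Nkx intact (log2 fold change -1.45, SE 0.21, edgeR adjusted p = 0.00641). Cbr2, a carbonyl reductase also abundant in mouse lung, had 50.5 and 47.8 CPM in Nkx castrate, against 93.4 and 103 CPM in Nkx intact (log2 fold change -0.997, SE 0.17, edgeR adjusted p = 0.0107). The groups did not overlap in either gene. Both calls were lost without either Nkx intact library, and that of Cbr2 also against a 1.5-fold minimum. Over all alternatives the adjusted p of edgeR, DESeq2 or limma-voom lay between 4.17e-09 and 0.0739 for Cyp2f2 and between 3.20e-06 and 0.130 for Cbr2.

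Ugt2b34, of the glucuronosyltransferase family that conjugates steroids and other lipophilic alcohols, had 21.9 and 32.0 CPM in Nkx castrate, against 0.765 and 0.198 CPM (8 and 2 counts) in Nkx intact. It rose 54.5-fold (log2 fold change 5.77, SE 0.49, edgeR adjusted p = 0.000983). The size rests on few counts in the intact libraries: the log2 fold change was 7.01 with Nkx intact 1 left out and 5.12 with Nkx intact 2 left out, and the gene stayed called under each alternative run. Cyp4v3, the mouse counterpart of a human omega-hydroxylase of fatty acids, had 40.7 and 96.7 CPM in Nkx castrate, against 6.70 and 5.14 CPM in Nkx intact. It rose 11.6-fold (log2 fold change 3.53, SE 0.43, edgeR adjusted p = 0.00370). Without Nkx castrate 2, the higher castrate library, the log2 fold change was 2.77. Cyp3a57, of the P450 subfamily with the broadest range of drug and steroid substrates, had 52.9 and 27.5 CPM in Nkx castrate, against 5.17 and 7.31 CPM in Nkx intact. It rose 6.45-fold (log2 fold change 2.69, SE 0.46, edgeR adjusted p = 0.0125). The castrate libraries were above both intact libraries in each of these genes. Without Nkx intact 2 the call of Cyp4v3 was lost, and without either Nkx intact library that of Cyp3a57. Over all alternatives the adjusted p of edgeR, DESeq2 or limma-voom lay between 1.55e-25 and 0.0687 for Cyp4v3 and between 3.95e-10 and 0.120 for Cyp3a57.

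Promoters are shown for the members called between Nkx castrate and Nkx intact that have an entry in RefSeq's table. They run from 250 bases before to 50 after the start. The table is on GRCm38.p6, an earlier build than that of the counts. Capitals mark the androgen receptor half-site (TGTTCT, or AGAACA on the other strand) and the core of the aryl hydrocarbon receptor site (GCGTG, or CACGC on the other strand). Genes that rose come first.
Ugt2b34, chr5:86906888-86907187, minus strand: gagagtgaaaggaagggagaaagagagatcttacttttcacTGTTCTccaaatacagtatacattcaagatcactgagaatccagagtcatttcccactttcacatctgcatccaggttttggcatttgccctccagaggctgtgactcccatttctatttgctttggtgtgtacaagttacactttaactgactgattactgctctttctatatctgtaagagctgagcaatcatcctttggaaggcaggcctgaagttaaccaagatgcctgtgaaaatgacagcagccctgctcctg
Cyp4v3, chr8:45333114-45333413, minus strand: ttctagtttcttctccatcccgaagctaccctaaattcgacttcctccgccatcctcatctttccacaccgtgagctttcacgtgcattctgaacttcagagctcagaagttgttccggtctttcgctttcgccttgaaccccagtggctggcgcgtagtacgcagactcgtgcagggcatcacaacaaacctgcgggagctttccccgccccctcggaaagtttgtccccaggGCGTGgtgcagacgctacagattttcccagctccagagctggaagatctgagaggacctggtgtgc
Cyp3a57, chr5:145345019-145345318, plus strand: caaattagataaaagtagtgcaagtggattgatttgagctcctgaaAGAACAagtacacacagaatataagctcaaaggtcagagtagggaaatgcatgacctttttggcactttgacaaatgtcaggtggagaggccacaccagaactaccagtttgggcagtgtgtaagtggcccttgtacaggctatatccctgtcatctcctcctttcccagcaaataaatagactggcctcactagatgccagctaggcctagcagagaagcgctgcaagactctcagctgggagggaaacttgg
Sult5a1, chr8:123158231-123158530, minus strand: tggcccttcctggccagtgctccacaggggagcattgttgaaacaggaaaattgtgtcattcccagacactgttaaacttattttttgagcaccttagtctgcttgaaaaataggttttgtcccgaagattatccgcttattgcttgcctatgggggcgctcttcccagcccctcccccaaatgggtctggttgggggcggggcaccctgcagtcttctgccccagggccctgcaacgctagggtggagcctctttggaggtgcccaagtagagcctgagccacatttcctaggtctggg
Cyp2f2, chr7:27119705-27120004, plus strand: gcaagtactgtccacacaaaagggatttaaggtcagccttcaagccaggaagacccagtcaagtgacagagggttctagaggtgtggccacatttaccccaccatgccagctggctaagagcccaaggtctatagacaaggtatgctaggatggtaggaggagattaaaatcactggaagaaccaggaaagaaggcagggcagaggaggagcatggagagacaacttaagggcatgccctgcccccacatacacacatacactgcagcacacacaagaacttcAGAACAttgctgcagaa
Cbr2, chr11:120731972-120732271, minus strand: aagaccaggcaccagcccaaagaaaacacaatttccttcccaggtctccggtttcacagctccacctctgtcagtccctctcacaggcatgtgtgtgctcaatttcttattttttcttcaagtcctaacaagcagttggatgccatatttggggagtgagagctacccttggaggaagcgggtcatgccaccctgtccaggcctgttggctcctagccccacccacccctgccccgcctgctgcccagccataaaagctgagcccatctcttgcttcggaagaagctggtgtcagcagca

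The half-site stood in the promoters of Ugt2b34 and Cyp3a57, which rose, and of Cyp2f2, which fell, and in 19% of all 32851 promoters of the table. The aryl hydrocarbon receptor core stood in that of Cyp4v3 and in 32.4% of all promoters. The motifs do not overlap each other. The inverted repeat of the half-site, AGAACA and TGTTCT with 3 bases of any kind between them, stood in none of the printed promoters and in 3 of all promoters. A match is a run of letters, not a bound site, and no match covers this window alone. Akr1b3 has no entry.

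**Figure D2:**
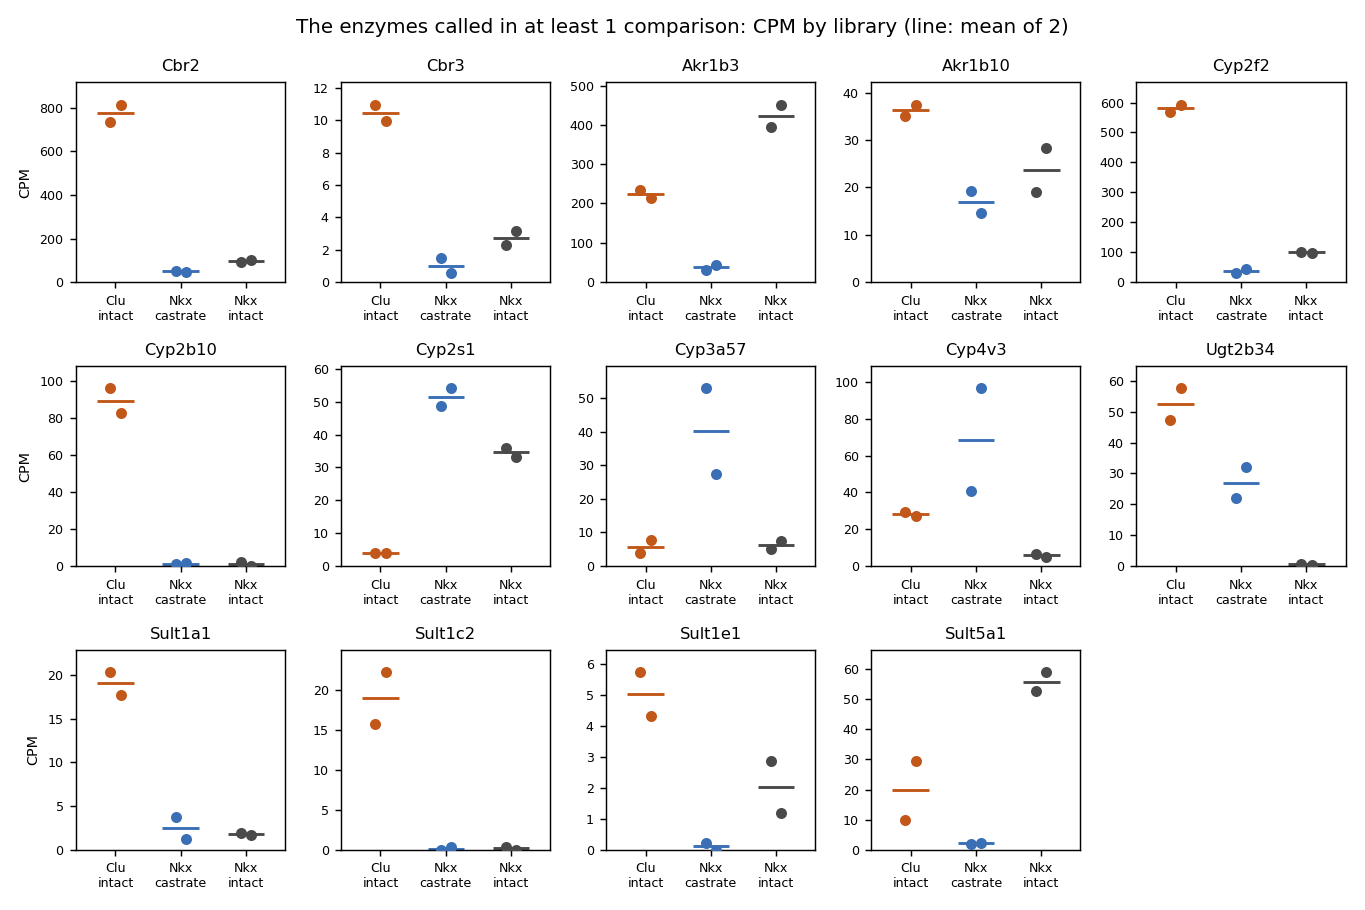
CPM (vertical axes, each from 0) of the 14 enzymes called in at least 1 comparison, in the 2 libraries of Clu intact, Nkx castrate and Nkx intact; each point is a library and each line the mean of 2. Akr1b3 and Sult5a1 are lowest in Nkx castrate (31.5 and 43.8 CPM, and 1.85 and 2.37 CPM), and Cyp2b10 is near 0 outside Clu intact (96.2 and 83.0 CPM).

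The comparison of Clu intact with Nkx intact is made without castration. The groups differ in the Cre driver, and with it in the reporter (tdTomato or EYFP) and the stock (B6.Cg or B6.129X1), which cannot be told apart. Of the 44 members tested, 7 were higher and 2 lower in Clu intact (edgeR quasi-likelihood test, Benjamini-Hochberg adjusted p under 0.05), or 15.9% and 4.55%. Over all genes tested 6.29% were higher and 5% lower, together 11.3% against 20.5% of the members. The groups did not overlap in 31 of the 44, against 63.2% of all genes. The median log2 fold change was 0.15 over the members and -0.01 over all genes. Leaving out Clu intact 2 or either of the Nkx intact libraries left 4 higher. The number lower was 1 without Clu intact 1 or either Nkx intact library and 7 when either Nkx castrate library was left out.

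Cbr2 and Cyp2f2 stood out by level. Cbr2 had 736 and 816 CPM in Clu intact, against 93.4 and 103 CPM in Nkx intact, and was 7.91-fold higher (log2 fold change 2.98, SE 0.18, edgeR adjusted p = 0.000256). Cyp2f2 had 568 and 593 CPM in Clu intact, against 102 and 97.6 CPM in Nkx intact, and was 5.83-fold higher (log2 fold change 2.54, SE 0.21, edgeR adjusted p = 0.000647). Libraries of a group lay close together in both genes, and both stayed called under each alternative run. Exons of Cyp2f2 overlap the antisense gene model Gm15883 over 13.5% of their bases, and reads of the pair cannot be told apart where strand was not counted. The same holds for 5.27% of Cyp2s1 (Gm26707) and 4.05% of Sult1a1 (Sgf29), and Cbr2 shares 10.6% of its 75-base words with Gm11771. Cyp4v3 overlaps Gm45753 on the same strand over 8.22% of its exon bases, which counting by strand would not separate.

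Cyp2b10, Sult1c2 and Sult1a1 had little RNA in Nkx intact. Cyp2b10, the phenobarbital-inducible P450 of the liver, had 96.2 and 83.0 CPM (1140 and 882 counts) in Clu intact, against 2.10 and 0 CPM (22 and 0 counts) in Nkx intact. Its log2 fold change was 6.38 (SE 0.84, edgeR adjusted p = 0.00370), 13.18 without Nkx intact 1, which leaves no count in Nkx intact and makes this fitted value no bound, and 5.41 without Nkx intact 2. Sult1c2, a cytosolic sulfotransferase, had 15.8 and 22.2 CPM in Clu intact, against 0.383 and 0 CPM (4 and 0 counts) in Nkx intact (log2 fold change 6.54, SE 1.18, edgeR adjusted p = 0.0122). Sult1a1, which sulfates phenols, had 20.3 and 17.8 CPM in Clu intact, against 1.91 and 1.68 CPM in Nkx intact (log2 fold change 3.40, SE 0.61, edgeR adjusted p = 0.0118). The groups did not overlap in any of the 3 genes. The log2 fold change of Sult1c2 was 10.94 with Nkx intact 1 left out, again against no count, and 5.60 with Nkx intact 2 left out. Its call was lost in limma-voom, when Clu intact 2 or either of the Nkx intact libraries was left out, and that of Sult1a1 without any library of the 2 groups. Over all alternatives the adjusted p of edgeR, DESeq2 or limma-voom lay between 7.26e-14 and 0.0890 for Sult1c2 and between 3.52e-07 and 0.108 for Sult1a1. Of the 7 endothelial markers, 4 were called higher in Clu intact against Nkx intact, where 6.29% of all genes tested were. These 7 markers summed to 906 CPM in Clu intact 1 and 371 CPM in Clu intact 2, and the part of that RNA in these results was not tested.

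Ugt2b34 and Cyp4v3, which had risen after castration, were also higher in Clu intact. The 2 comparisons share the Nkx intact libraries. Ugt2b34 had 47.2 and 57.6 CPM in Clu intact, against 0.765 and 0.198 CPM in Nkx intact (log2 fold change 6.73, SE 0.50, edgeR adjusted p = 0.000455; 7.99 with Nkx intact 1 left out and 6.08 with Nkx intact 2 left out). Cyp4v3 had 29.2 and 27.2 CPM in Clu intact, against 6.70 and 5.14 CPM in Nkx intact (log2 fold change 2.25, SE 0.42, edgeR adjusted p = 0.0135). Its call was lost without any library of the 2 groups and in limma-voom, with an adjusted p of edgeR, DESeq2 or limma-voom between 2.36e-11 and 0.134 over all alternatives.

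Cyp2s1 and Akr1b3 were the members lower in Clu intact. Cyp2s1, a P450 of epithelia outside the liver, had 4.05 and 3.95 CPM in Clu intact, against 36.0 and 33.1 CPM in Nkx intact. It was 8.61-fold lower (log2 fold change -3.11, SE 0.24, edgeR adjusted p = 0.000512) and stayed called under each alternative run. Akr1b3 had 234 and 213 CPM in Clu intact, against 393 and 452 CPM in Nkx intact (log2 fold change -0.92, SE 0.20, edgeR adjusted p = 0.0255). The call of Akr1b3 was lost without any library of the 2 groups and against a 1.5-fold minimum, with an adjusted p of edgeR, DESeq2 or limma-voom between 0.000392 and 0.222 over all alternatives.

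The comparison of Clu intact with Nkx castrate differs in castration as well as in driver, reporter and stock, and these cannot be told apart in it. Of the 44 members tested, 10 were higher and 2 lower in Clu intact (edgeR quasi-likelihood test, Benjamini-Hochberg adjusted p under 0.05), or 22.7% and 4.55%, where 8.82% and 8.1% of all genes tested were. Calls in either direction made up 27.3% of the members and 16.9% of all genes, and the groups did not overlap in 28 of the 44 members, against 61.4% of all genes. The median log2 fold change was 0.08 over the members and 0.00 over all genes. The number higher was 6 with Clu intact 1 left out and 5 with Clu intact 2 left out, and the number lower was 4 without Nkx castrate 2.

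Of the carbonyl and aldo-keto reductases, 4 were higher. Cbr2 had 736 and 816 CPM in Clu intact, against 50.5 and 47.8 CPM in Nkx castrate, 15.8-fold higher (log2 fold change 3.98, SE 0.18, edgeR adjusted p = 1.00e-04). Akr1b3 had 234 and 213 CPM in Clu intact, against 31.5 and 43.8 CPM in Nkx castrate, 5.93-fold higher (log2 fold change 2.57, SE 0.21, edgeR adjusted p = 0.000461). Cbr3, a close relative of the main cytosolic carbonyl reductase, had 10.97 and 9.97 CPM in Clu intact, against 1.46 and 0.591 CPM in Nkx castrate (log2 fold change 3.32, SE 0.64, edgeR adjusted p = 0.0117; 4.12 without Nkx castrate 1). Akr1b10, of the same branch as aldose reductase, had 35.0 and 37.5 CPM in Clu intact, against 19.4 and 14.7 CPM in Nkx castrate (log2 fold change 1.09, SE 0.28, edgeR adjusted p = 0.0351). The groups did not overlap in these 4 genes. The calls of Cbr3 and Akr1b10 were lost without either Clu intact library, and that of Akr1b10 also against a 1.5-fold minimum and with only these 2 groups in the fit. Over all alternatives the adjusted p of edgeR, DESeq2 or limma-voom lay between 1.76e-05 and 0.0809 for Cbr3 and between 0.00446 and 0.201 for Akr1b10. Cbr2, Akr1b3 and Cyp2f2 are the 3 members called in all comparisons.

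Among the P450 enzymes, Cyp2f2 had 568 and 593 CPM in Clu intact, against 30.03 and 43.2 CPM in Nkx castrate, 15.9-fold higher (log2 fold change 3.99, SE 0.23, edgeR adjusted p = 0.000147). Cyp2b10 had 96.2 and 83.0 CPM in Clu intact, against 1.12 and 1.33 CPM in Nkx castrate (log2 fold change 6.19, SE 0.81, edgeR adjusted p = 0.00258). Cyp2s1 and Cyp3a57 went the other way. Cyp2s1 had 4.05 and 3.95 CPM in Clu intact, against 48.8 and 54.0 CPM in Nkx castrate, 12.8-fold lower (log2 fold change -3.68, SE 0.24, edgeR adjusted p = 0.000209). Cyp3a57 had 3.88 and 7.62 CPM in Clu intact, against 52.9 and 27.5 CPM in Nkx castrate (log2 fold change -2.81, SE 0.47, edgeR adjusted p = 0.00662). These 4 stayed called under each alternative run.

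The 4 sulfotransferases called were all higher in Clu intact. Sult5a1 had 9.96 and 29.4 CPM in Clu intact, against 1.85 and 2.37 CPM in Nkx castrate (log2 fold change 3.22, SE 0.51, edgeR adjusted p = 0.00547), and the fold turned on the Clu intact libraries, at 3.83 with Clu intact 1 left out and 2.27 with Clu intact 2 left out. Sult1c2 had 15.8 and 22.2 CPM in Clu intact, against 0 and 0.296 CPM (0 and 4 counts) in Nkx castrate (log2 fold change 7.05, SE 1.19, edgeR adjusted p = 0.00710). Sult1a1 had 20.3 and 17.8 CPM in Clu intact, against 3.70 and 1.18 CPM in Nkx castrate (log2 fold change 2.94, SE 0.58, edgeR adjusted p = 0.0127). Every Clu intact library lay above both castrate libraries in these genes. Sult1e1, the oestrogen sulfotransferase, had 5.74 and 4.33 CPM in Clu intact, against 0.224 and 0 CPM (4 and 0 counts) in Nkx castrate (log2 fold change 5.27, SE 1.22, edgeR adjusted p = 0.0230). Without Nkx castrate 1 the log2 fold change was 5.95 for Sult1c2, 4.00 for Sult1a1 and 8.84 for Sult1e1, and without Nkx castrate 2 it was 10.86 for Sult1c2 and 4.43 for Sult1e1; those of 8.84 and 10.86 stand against no count and are no bounds. The calls of Sult1a1 and Sult1e1 were lost without either Clu intact library, that of Sult1e1 also in limma-voom, and that of Sult1c2 without Clu intact 2. Over all alternatives the adjusted p of edgeR, DESeq2 or limma-voom lay between 8.10e-16 and 0.0600 for Sult1c2, between 5.22e-06 and 0.0788 for Sult1a1 and between 0.000102 and 0.134 for Sult1e1.

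**Figure D3:**
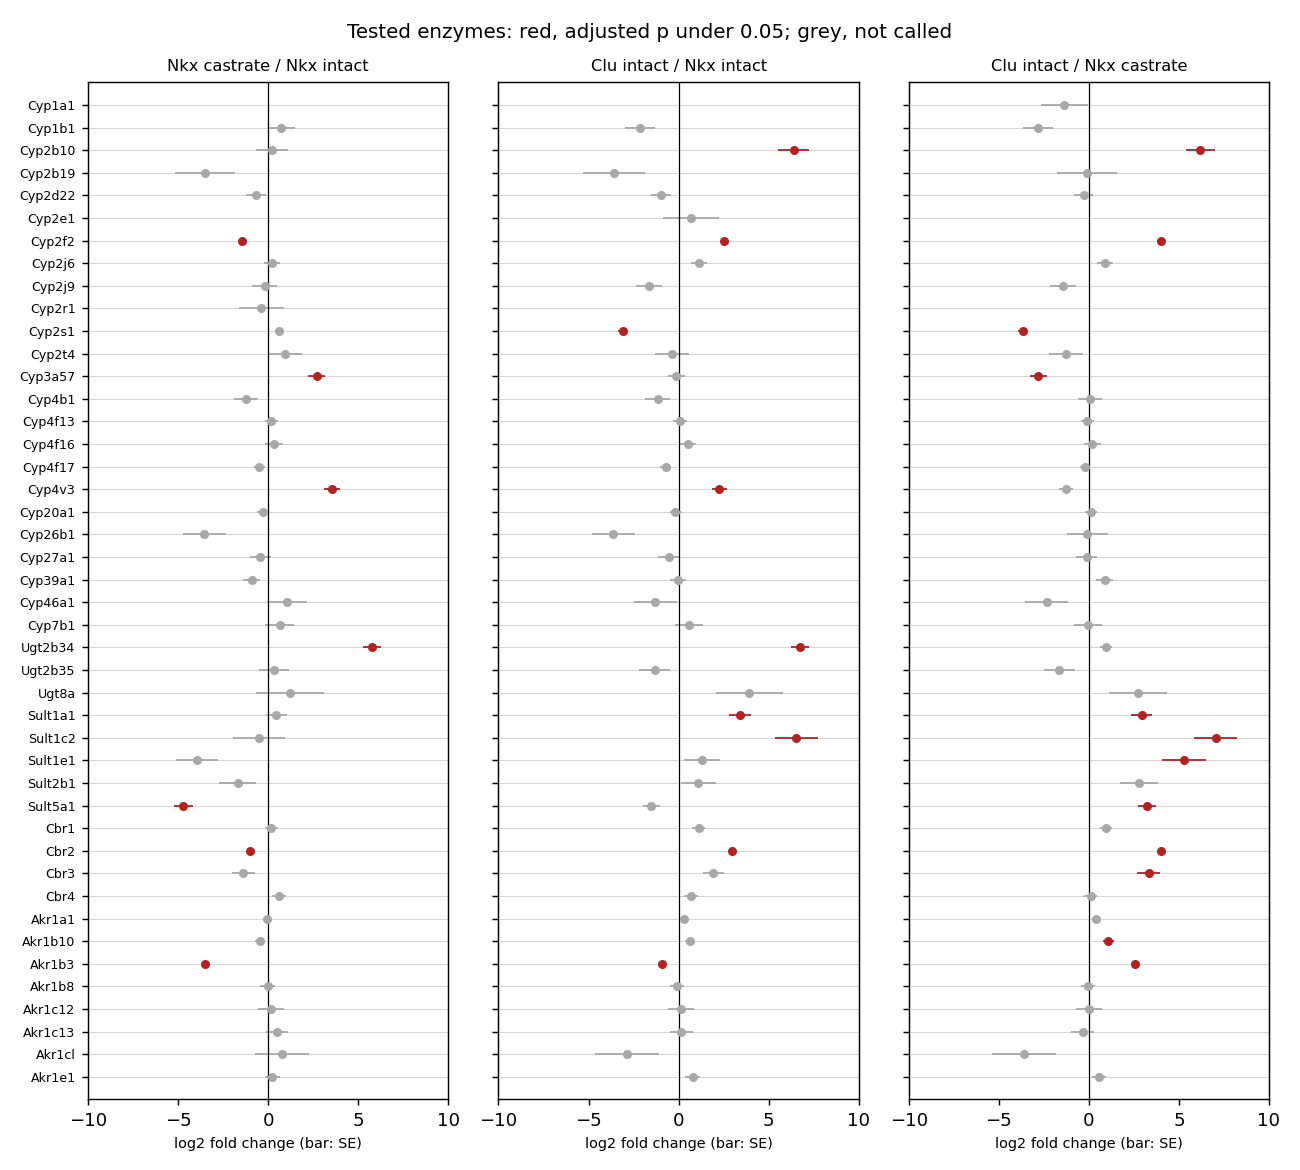
Log2 fold change (horizontal axes, bar: SE) of the 44 tested enzymes in the 3 comparisons, ordered by class from Cyp1 at the top to Akr1 at the bottom; red points have an edgeR adjusted p under 0.05. In each panel 2 enzymes without a count in a group are not drawn (Cyp1a1, Cyp2e1 or Cyp2r1), and the called points number 7, 9 and 12 from left to right.

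Of the 44 tested members, 30 were called in no comparison, 16 of them with a mean of at least 5 CPM. Akr1a1 had 362 and 379 CPM in Clu intact, 234 and 334 CPM in Nkx castrate, with 291 and 311 CPM in Nkx intact. The castrate libraries differed from each other by more than the group means did. Cbr1, the main cytosolic carbonyl reductase, had 68.2 and 77.9 CPM in Clu intact, 23.2 and 52.4 CPM in Nkx castrate, with 33.4 and 33.6 CPM in Nkx intact. Cbr4, a mitochondrial relative, lay between 5.93 and 10.3 CPM in the 6 libraries. Cbr1 was not called, with a lowest edgeR adjusted p of 0.0867 (Clu intact against Nkx intact), although the Clu intact libraries were above the rest.

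The Cyp1 enzymes, the textbook targets of the aryl hydrocarbon receptor, were low. Cyp1a1 had 12 and 8 counts in Clu intact (1.01 and 0.753 CPM), 8 and 56 counts in Nkx castrate (0.449 and 4.14 CPM), and no count in Nkx intact. Set against 3 counts for the whole Nkx intact group, its mean was 15.7-fold higher in Nkx castrate and 6.05-fold higher in Clu intact. The castrate fold was 28.4 with Nkx castrate 1 left out and 3.08 with Nkx castrate 2 left out. Neither comparison passed (edgeR adjusted p = 0.0848 and 0.132). Cyp1b1, which also hydroxylates oestrogens, had 1.01 and 1.69 CPM in Clu intact, 16.2 and 3.25 CPM in Nkx castrate, with 7.84 and 4.15 CPM in Nkx intact, and was not called. Its highest value was that of Nkx castrate 1, the library with the most fibroblast and smooth muscle marker RNA (2167 CPM). Whether that RNA carries Cyp1b1 was not tested. Cyp1a2 had 4 counts in all.

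In the Cyp2 class, 2 further enzymes had a group without a count and are named for that reason after their values were seen. Cyp2e1, the ethanol-inducible P450, had 36 and 44 counts in Clu intact, none in Nkx castrate, and 46 and 0 counts in Nkx intact. Set against 3 counts for the whole Nkx castrate group, its mean in Clu intact was 37.5-fold higher, and the comparison did not pass (edgeR adjusted p = 0.0704). Cyp2r1, which hydroxylates vitamin D, had none in Clu intact, 18 and 8 counts in Nkx castrate, with 16 and 6 counts in Nkx intact, and was not called in any comparison.

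The P450 families that act on sterols, retinoids and fatty acids did not differ by call, apart from Cyp4v3. Cyp20a1, whose substrate is unsettled, had 24.6 and 23.8 CPM in Clu intact, 16.4 and 28.1 CPM in Nkx castrate, with 32.2 and 22.4 CPM in Nkx intact. Cyp27a1, a mitochondrial sterol hydroxylase, had 10.8 and 9.03 CPM, 16.6 and 4.88 CPM, and 19.3 and 9.88 CPM in the same groups. Libraries of all groups overlapped in both genes. Cyp26b1, which clears retinoic acid, had 55.8 CPM in Nkx intact 1, against 4.74 CPM in Nkx intact 2 and 0.591 to 4.49 CPM in the other 4 libraries, so that 1 library set its mean. Of the omega-hydroxylases, Cyp4f13 lay between 10.6 and 18.2 CPM in the 6 libraries, and Cyp4f17 had 9.62 and 12.2 CPM in Clu intact, 13.4 and 11.9 CPM in Nkx castrate, with 17.6 and 18.0 CPM in Nkx intact. Cyp7b1, an oxysterol and androgen hydroxylase known in the prostate, lay between 1.34 and 4.29 CPM. Among the other glucuronosyltransferases, Ugt2b35 had 1.52 and 2.26 CPM in Clu intact, 3.14 and 8.72 CPM in Nkx castrate, with 1.72 and 7.70 CPM in Nkx intact, and Ugt8a, which makes galactosylceramide, had at most 1.69 CPM in any library.

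The enzymes that make steroid hormones from cholesterol were at or near the detection limit. Cyp11a1, which opens that pathway, had 4 and 1 counts in Clu intact, 40 and 0 counts in Nkx castrate, with 2 and 0 counts in Nkx intact. Cyp17a1, which leads into the androgens, had 4 and 2, 1 and 8, and 0 and 6 counts in the same groups. The aromatase gene Cyp19a1 had no count in any library, where a floor of 3 counts stands for 0.168 to 0.296 CPM per library. The Akr1c genes, whose products include hydroxysteroid dehydrogenases, were low as well. Akr1c12 lay between 1.58 and 3.44 CPM and Akr1c13 between 2.10 and 4.60 CPM, with 17.3% of the 75-base words of the longest transcript of each found in the other gene, so their separate counts are uncertain. Akr1cl also passed the filter, with 4 and 0 counts in Clu intact, 77 and 2 counts in Nkx castrate, and 10 and 17 counts in Nkx intact, and was not called. Akr1c6 had no count.

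Genes around these enzymes were read from 5 lists of pathway partners. Their counts stand against 4.02% higher and 4.59% lower of all genes tested in Nkx castrate against Nkx intact, 6.29% and 5% in Clu intact against Nkx intact, and 8.82% and 8.1% in Clu intact against Nkx castrate. Of 15 tested receptors, sensors and their partners, 4 rose and 1 fell in Nkx castrate against Nkx intact, 1 was higher and 3 lower in Clu intact against Nkx intact, and 1 was higher and 6 lower in Clu intact against Nkx castrate. Ahr, the aryl hydrocarbon receptor, had 99.0 and 86.8 CPM in Clu intact, 441 and 508 CPM in Nkx castrate, with 79.0 and 94.0 CPM in Nkx intact. It rose 5.48-fold with castration (log2 fold change 2.45, SE 0.19, edgeR adjusted p = 0.000742) and was 5.10-fold lower in Clu intact than in Nkx castrate (log2 fold change -2.35, SE 0.19, edgeR adjusted p = 0.000399). Tiparp, a target and repressor of this receptor, had 47.9 and 38.7 CPM in Clu intact, 245 and 286 CPM in Nkx castrate, with 73.5 and 50.7 CPM in Nkx intact, and rose 4.27-fold with castration (log2 fold change 2.10, SE 0.23, edgeR adjusted p = 0.00249). The castrate libraries stood well above the rest in both genes, and both stayed called in these comparisons under each alternative run. Cebpb, a transcription factor of the liver and of inflammation, was 4.06-fold lower in Clu intact than in Nkx castrate (log2 fold change -2.02, SE 0.28, edgeR adjusted p = 0.00329). Rxrg, a retinoid X receptor, had 24 and 28 counts in Clu intact, 107 and 26 counts in Nkx castrate, and none in Nkx intact. Set against 3 counts for the whole Nkx intact group, it was 16.0-fold higher in Clu intact and 27.2-fold higher in Nkx castrate. The castrate fold of Rxrg was 13.2 with Nkx castrate 1 left out and 41.2 with Nkx castrate 2 left out. The calls of Rxrg were lost in limma-voom and without any Clu intact or Nkx intact library. Without either Nkx intact library the number of receptors that rose with castration was 2, and without any of 5 libraries (Nkx castrate 1 the exception) the number that fell was 0. In Clu intact against Nkx intact the number higher was 0 without any Clu intact or Nkx intact library and 3 when either Nkx castrate library was left out, and the number lower 0 without Clu intact 2 or Nkx intact 1, 1 with Nkx intact 2 left out and 5 with Nkx castrate 1 left out.

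**Figure D4:**
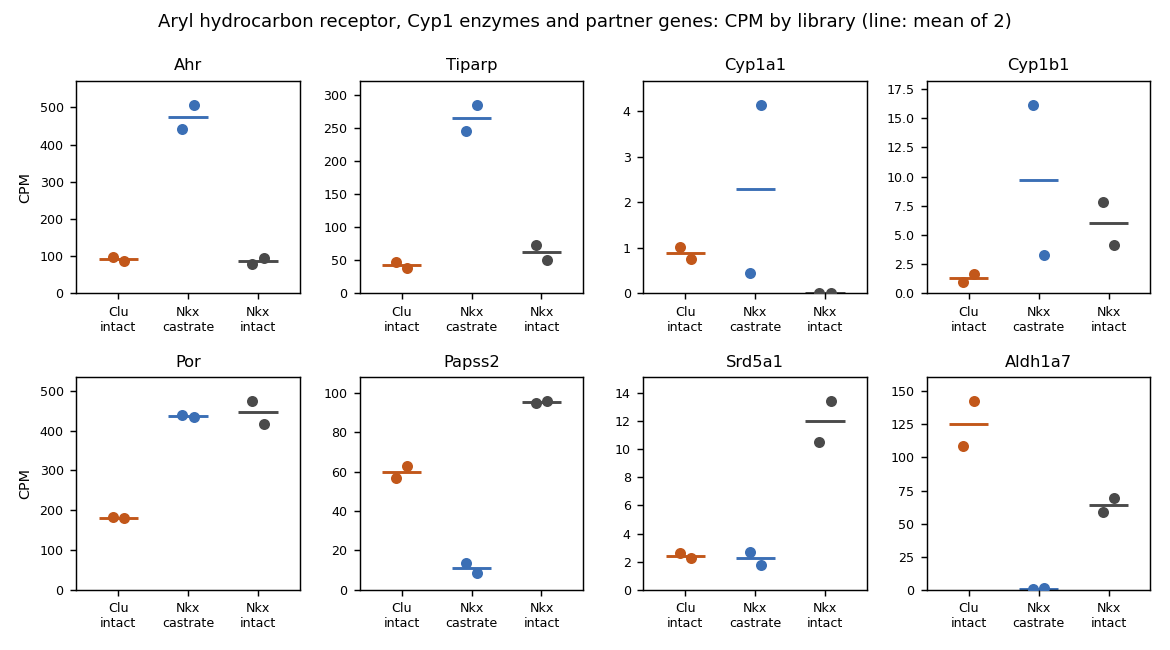
CPM (vertical axes, each from 0) of Ahr, Tiparp, the Cyp1 enzymes and 4 partner genes in the 2 libraries of Clu intact, Nkx castrate and Nkx intact; each point is a library and each line the mean of 2. Ahr and Tiparp are highest in Nkx castrate (441 and 508 CPM, and 245 and 286 CPM), while Papss2 is lowest there (13.4 and 8.58 CPM) and Por is lowest in Clu intact (184 and 179.6 CPM).

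Por, the reductase that feeds electrons to microsomal P450 enzymes, had 184 and 179.6 CPM in Clu intact, 440.2 and 434 CPM in Nkx castrate, with 474 and 417 CPM in Nkx intact. It was 2.45-fold lower in Clu intact than in Nkx intact (log2 fold change -1.30, SE 0.16, edgeR adjusted p = 0.00307) and 2.41-fold lower than in Nkx castrate (log2 fold change -1.27, SE 0.16, edgeR adjusted p = 0.00244), and stayed called under each alternative run. Por was thus lowest in the group in which Cyp2f2 and Cyp2b10 were highest. Of the 19 tested genes of electron supply and haem synthesis, none was called with castration by edgeR (3 higher and 4 lower had an unadjusted p under 0.05, DESeq2 called 1 in each direction and limma-voom 1 lower). In Clu intact 2 were higher and 1 lower against Nkx intact, and 3 and 1 against Nkx castrate. Alas1, which starts haem synthesis, had 180.5 and 223 CPM in Clu intact, 68.5 and 123 CPM in Nkx castrate, with 101 and 93.0 CPM in Nkx intact. Cyb5b, an electron carrier of the outer mitochondrial membrane, had 413 and 449 CPM, 139.9 and 261 CPM, and 401 and 458 CPM in the same groups. Alas1 was higher in Clu intact than in either Nkx group, and Cyb5b than in Nkx castrate, with log2 fold changes between 1.05 and 1.10. The calls of Alas1 and Cyb5b were lost without any Clu intact or Nkx intact library. The number called higher in Clu intact was then 0 in both comparisons, whereas without a Nkx castrate library it was 4 against Nkx intact and, without Nkx castrate 2, 8 against Nkx castrate. Without either Nkx castrate library 2 genes were lower in Clu intact in both comparisons, and with castration 3 rose and 3 fell without Nkx castrate 1 and 2 fell without Nkx castrate 2.

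The next list holds the genes that supply or undo conjugation. Of 10 tested, 2 fell and none rose in Nkx castrate against Nkx intact, and 4 were higher and none lower in Clu intact against Nkx castrate (edgeR). At an unadjusted p under 0.05, 1 gene rose with castration and 0 were lower in Clu intact against Nkx castrate, and DESeq2 and limma-voom called 0 in both cases. Papss2, which makes the activated sulfate used by sulfotransferases, had 56.8 and 62.8 CPM in Clu intact, 13.4 and 8.58 CPM in Nkx castrate, with 94.9 and 95.8 CPM in Nkx intact. It fell 8.66-fold with castration (log2 fold change -3.11, SE 0.26, edgeR adjusted p = 0.000939), and was 5.43-fold higher in Clu intact than in Nkx castrate (log2 fold change 2.44, SE 0.25, edgeR adjusted p = 0.00102). Papss2 and the summed sulfotransferases were thus lowest in the same libraries. In Nkx intact 90.6% of the sulfotransferase sum was Sult5a1. Gusb, the lysosomal glucuronidase that removes glucuronic acid, had 49.7 and 57.2 CPM in Clu intact, 15.4 and 16.0 CPM in Nkx castrate, with 55.1 and 51.7 CPM in Nkx intact, and fell 3.40-fold with castration (log2 fold change -1.77, SE 0.21, edgeR adjusted p = 0.00310). These calls of Papss2 and Gusb held under each alternative run. Papss1 and Ugp2, which makes UDP-glucose, were 1.71-fold and 1.76-fold higher in Clu intact than in Nkx castrate (edgeR adjusted p = 0.0380 and 0.0452), and both calls were lost without any Clu intact or Nkx intact library, that of Ugp2 also without Nkx castrate 1, which leaves 2 genes higher in the first case. Papss1 was also higher than in Nkx intact, the only gene of the list called in that comparison, and lost that call without any Clu intact or Nkx intact library and with DESeq2 size factors. With Nkx castrate 1 left out 2 genes of the list were lower in Clu intact against Nkx intact, and with Nkx castrate 2 left out 1 was, 1 rose with castration and 1 was lower against Nkx castrate.

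Of 13 tested steroid reductases and dehydrogenases outside the symbol rule, 2 fell and none rose with castration (edgeR; 0 rose at an unadjusted p under 0.05, in DESeq2 or in limma-voom). In Clu intact 1 was lower against Nkx intact, and 1 was higher against Nkx castrate. Srd5a1, a reductase that makes dihydrotestosterone, had 2.62 and 2.26 CPM in Clu intact, 2.69 and 1.77 CPM in Nkx castrate, with 10.5 and 13.4 CPM in Nkx intact. It fell 5.32-fold with castration (log2 fold change -2.41, SE 0.51, edgeR adjusted p = 0.0283) and was 4.90-fold lower in Clu intact than in Nkx intact (log2 fold change -2.29, SE 0.52, edgeR adjusted p = 0.0281). Hsd17b11, a short-chain dehydrogenase of lipid droplets, had 72.8 and 75.8 CPM in Clu intact, 30.6 and 28.4 CPM in Nkx castrate, with 58.5 and 60.9 CPM in Nkx intact, and fell 2.03-fold with castration (log2 fold change -1.02, SE 0.19, edgeR adjusted p = 0.0155). The Clu intact libraries are not in the castration comparison. Without either of them its log2 fold change was -2.42 for Srd5a1 and -1.03 for Hsd17b11, so the folds hardly moved. Both castration calls, and that of Srd5a1 in Clu intact, were lost without any Clu intact or Nkx intact library, which leaves no gene of the list called lower. Without either Nkx castrate library 2 were higher in Clu intact against Nkx intact, and without Nkx castrate 2 the number higher against Nkx castrate was 3.

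Among 33 other tested enzymes of oxidation and hydrolysis, 6 fell and none rose with castration (edgeR; 3 rose at an unadjusted p under 0.05, 3 in DESeq2 and 0 in limma-voom), 4 were higher and 3 lower in Clu intact against Nkx intact, and 9 were higher and 2 lower against Nkx castrate. Of all genes tested 4.59% fell and 4.02% rose with castration. Aldh1a7, an aldehyde dehydrogenase close to the retinal-oxidising Aldh1a1, had 108 and 143 CPM in Clu intact, 0.449 and 1.33 CPM (8 and 18 counts) in Nkx castrate, with 58.8 and 69.1 CPM in Nkx intact. It fell 74.3-fold with castration (log2 fold change -6.22, SE 0.43, edgeR adjusted p = 0.000464; -5.57 with Nkx castrate 1 left out and -7.13 with Nkx castrate 2 left out) and was higher in Clu intact than in Nkx castrate (log2 fold change 7.19, SE 0.44, edgeR adjusted p = 0.000183; 6.55 and 8.10 without the same libraries). The castrate libraries were nearly without this RNA. Adh7, an alcohol dehydrogenase of upper gut epithelia, had 98 and 73 counts in Clu intact, 4 and 0 counts in Nkx castrate, with 2 and 1 counts in Nkx intact, and Aox3, an aldehyde oxidase, had 58 and 131, 24 and 6, and 6 and 0 counts. Ephx2, the soluble epoxide hydrolase, had 14 and 38 counts in Clu intact, 26 and 18 counts in Nkx castrate and none in Nkx intact. Set against 3 counts for the whole Nkx intact group, it was 16.3-fold higher in Clu intact (24.5-fold with Clu intact 1 left out and 8.10-fold with Clu intact 2 left out). Adh7 and Ephx2 were called higher in Clu intact against Nkx intact, as was Aox3, and these 3 calls were lost without any library of the 2 groups. The number that fell with castration was 2 with either Nkx intact library left out and 11 with Nkx castrate 2 left out, and the number that rose was 2 with Nkx castrate 1 left out and 1 with Nkx castrate 2 left out. Against Nkx intact the number higher in Clu intact was 1 with Clu intact 1 left out, 0 when Clu intact 2 or either of the Nkx intact libraries was left out, and 10 when a Nkx castrate library was. The number lower was 1 without any Clu intact or Nkx intact library and 5 when a Nkx castrate library was left out. Against Nkx castrate the numbers were 4 higher and 1 lower without Clu intact 1, and 2 higher and 1 lower when Clu intact 2 was left out.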

How the data were processed

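Members, pathway lists and tests were chosen with earlier results of these data known. The authors deposited whole-number gene counts, made per the submitters' processing notes with FastQC 0.11.9, STAR 2.7.9a and featureCounts of Subread 2.0.1 on GRCm39. Whether strand was used and whether mates of a pair were counted separately is not given in the sources used here. The stranded kit was SMARTer Stranded Total RNA-Seq v3 Pico, per the labels' protocols.

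Counts of all genes in the 6 libraries were filtered with filterByExpr, which left 13846, scaled by TMM and fitted in edgeR 4.0.16 (R 4.3.3) with 1 mean per group. The quasi-likelihood test was two-sided, with Benjamini-Hochberg adjustment over all genes tested and a threshold of 0.05. The biological coefficient of variation was 33.7%, with 3 residual degrees of freedom. All 6 libraries share the estimate of spread, and a fit without 1 library has fewer degrees of freedom. A library outside a comparison can therefore change its calls while the folds hardly move. CPM are TMM-scaled counts. The fit was also run on simulated counts. These were drawn independently, without the pairs seen in low counts, and nothing is drawn from them here.

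Named genes are members called in a comparison (up to 15 in each direction), the 3 members of each class with the highest mean CPM, and up to 4 called genes of each pathway list. 1 gene that the rule names is not reported here. Alternatives were DESeq2 size factors, upper-quartile factors, library totals, a looser and a stricter count filter, DESeq2 1.42.0, limma-voom (limma 3.58.1), a fit of the 2 groups compared, a test against a 1.5-fold minimum, the replicate number as a block, and fits without 1 library at a time. Halved counts were added after seeing that low counts are mostly even. Exon lengths, shared sequence and antisense overlaps came from GENCODE on GRCm38, and promoters from RefSeq on GRCm38.p6, where 13 of the 14 called members had an entry. Coordinates on GRCm39 were not used here.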

Additional observations from a re-analysis of the deposited data

How the results depend on the processing

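None of the 28 results of a member called in a comparison reversed under an alternative. All 28 stayed called under the other scalings, the looser filter, DESeq2, the replicate block and halved counts (chosen after seeing the data), and so did the 26 that the stricter filter kept. In limma-voom 3 were not called, against a 1.5-fold minimum 3, with only the libraries of the 2 groups compared 1, and without some library 13. Leaving out 1 library gave 1 to 4 members higher and 2 to 8 lower in Nkx castrate against Nkx intact, 4 to 10 higher and 1 to 7 lower in Clu intact against Nkx intact, and 5 to 14 higher and 2 to 4 lower in Clu intact against Nkx castrate. With every gene of at least 1 count tested, the numbers lower were 9, 6 and 4 in the same order. DESeq2 gave 4 members lower in Clu intact against Nkx intact and 5 lower against Nkx castrate. In Clu intact against Nkx intact, a fit of these groups alone gave 7 lower and a 1.5-fold minimum 1. Same-numbered libraries deviated together with r = 0.235, 0.0437 and 0.0901 in the 3 pairs of groups, so the numbers were not taken as pairs. With the replicate block 3 members were higher and 5 lower in Nkx castrate against Nkx intact, 8 and 4 in Clu intact against Nkx intact, and 11 and 2 in Clu intact against Nkx castrate. Summed CPM moved by more than the SD of the libraries in 3 classes. Cyp2 was 695 with upper-quartile factors and 722 with library totals in Clu intact, and 123 and 119 in Nkx castrate. The P450 families of endogenous substrates were 53.3 and 55.4 in Clu intact, and 51.4 and 49.5 in Nkx castrate. Akr1 in Clu intact was 659 with DESeq2 size factors, 653 with upper-quartile factors and 679 with library totals. The cause of these shifts was not tested beyond the change of setting. With 2 libraries a group, an enzyme of few counts can differ widely and not pass.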

Other observations

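Members below the filter were spread unevenly over the libraries. A count was found for 75 and 65 of the 203 members in Clu intact, for 120 and 64 in Nkx castrate, and for 63 and 53 in Nkx intact. Of the 101 members with counts below the filter, 40 had counts in Nkx castrate 1 and in no other library, against 1 to 7 for each of the other libraries. The most frequent of the 40 had 24 counts (Cyp2c70, a P450 of bile acid metabolism in the mouse liver). Nkx castrate 1 was also the deepest library, with 17412874 counts, and had a count for 18516 genes, against 15045 to 15778 in the others. Of the steroidogenic enzymes, 40 of the 47 counts of Cyp11a1 lay in this library. Whether depth or other RNA in this library bears on these counts was not tested.

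Other low members differed between groups as values. Akr1b7, an aldo-keto reductase known from the adrenal gland and vas deferens of the mouse, had 9 and 17 counts in Clu intact, none in Nkx castrate, with 1 and 5 in Nkx intact. Akr1c19 had counts in Nkx castrate alone (10 and 15), and Ugt2b1 had 27 and 7 there, against 1 and 0 in Clu intact and 0 and 0 in Nkx intact. These genes were chosen after their values were seen and did not pass the filter.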
